A study of Mus musculus with 6 samples.

Results

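The genes described are those of the mouse mitochondrial ribosomal proteins. They were taken as all rows of a read-count table whose Ensembl identifier carries a symbol of Mrpl or Mrps followed by a number, without pseudogenes. The rule uses names alone and no measured value. It gave 77 of the 22271 genes of the table, 50 of the large and 27 of the small ribosomal subunit. Mrpl33 also fits the rule by its name and was not analysed here.

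RNA was measured in a pair of bone marrow progenitor populations of C57BL/6JRj mice, obtained by cell sorting, each with 3 libraries. The labels call them CD27 high MODP and CD27 low MOP. The title of the series places a progenitor with macrophage and osteoclast potential below one that also yields dendritic cells. Sample titles mark every library as WT, no treatment is named, while age, sex and the number of animals behind a library were not given in the sources used here.

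Mitochondria keep a small genome whose messages are translated inside the organelle by a ribosome of their own. Its RNAs come from mitochondrial DNA, whereas every Mrpl and Mrps protein is encoded in the nucleus, made in the cytosol and imported. Some of these proteins descend from bacterial ribosomal proteins, and others were added during the evolution of mitochondria. The products of this ribosome are core subunits of the respiratory chain and of ATP synthase.

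The libraries held 10701425 to 15892640 counts. Expression is given as CPM, read counts as a share of the scaled library size, in parts per 1000000. Cd27, the sort marker, had a mean of 37.6 ± 1.99 CPM over the MODP libraries against 3.91 ± 0.571 CPM over the MOP libraries (SD, n = 3 each), the direction its labels give. Marker genes of other cells also moved with the groups, and their part in the results on mitoribosomal genes was not tested. Of 12 T and NK cell markers tested, 7 were lower in MOP, with a summed level of 227 to 304 CPM over the MODP libraries and 68.3 to 111 CPM over the MOP libraries, most of it Nkg7. Of 10 basophil and mast cell markers, 9 were higher, at 572 to 1184 CPM against 3496 to 5500 CPM. Of 11 erythroid and megakaryocyte markers, 4 were higher, at 141 to 533 CPM against 398 to 527 CPM. Of 10 neutrophil markers 0 were called, at 2207 to 17042 CPM against 2936 to 12055 CPM, highest in replicate 2 of each group, so that these libraries stood apart. Of 6 stroma and endothelium markers 0 were called, at 208 to 3285 CPM against 204 to 611 CPM, highest in MODP replicate 2. B cell markers, 9 tested and 0 called, summed to 45.4 to 141 CPM against 40.1 to 84.8 CPM. No marker was at 0 in all libraries.

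Mitoribosomal genes were, as a group, slightly less abundant in MOP than in MODP. Of the 76 members that passed the filter on low counts, 21 were lower in MOP and 0 were higher by edgeR's quasi-likelihood test, at an adjusted p below 0.05. Of all 12850 genes tested, 14.9% were lower in MOP and 16.3% were higher, against 27.6% and 0% of the members. At an unadjusted p below 0.05 in the same test, 1 member (Mrpl52) was higher and 26 were lower. At that p, 2729 of all 12850 genes tested were higher and 2722 were lower. DESeq2 called 0 higher and 15 lower (19.7% of the members, against 13.2% of all tested genes). In a fit that pairs libraries by replicate number, Mrpl4 and Mrpl52 were also higher, as were 2724 of all 12850 genes tested. That fit had 25 members lower (32.9%, against 19.8% of all tested genes).

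The shift was small in every member that passed. The 21 lower genes were 1.16 to 1.41 times less abundant in MOP, with a median of 1.24. The median log2 fold change of the 76 tested members was -0.16, so that the median member stood at 89.7% of its MODP level. The median over all tested genes was -0.01. A negative log2 fold change was found for 65 members (85.5%), against 51.2% of all tested genes. In bulk samples such as these, fewer cells of a type and less RNA per cell cannot be told apart.

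Spread between libraries of a group was small for these genes. Summed over the 77 members, MODP replicates 1, 2 and 3 held 2836, 2828 and 2971 CPM, and MOP replicates 1, 2 and 3 held 2546, 2598 and 2655. The MOP libraries therefore all lay below the MODP libraries, and their mean of 2600 ± 54.5 CPM was 90.3% of the MODP mean of 2878 ± 80.3 (SD, n = 3 each). Large subunit genes alone summed to 1947, 1918 and 2013 CPM in the MODP libraries and to 1748, 1778 and 1822 CPM in the MOP libraries. Small subunit genes summed to 889, 910 and 958 CPM in the MODP libraries and to 798, 820 and 833 CPM in the MOP libraries. In neither subunit did the groups overlap. The coefficient of variation of a member had a median of 6.19% in MODP and 5.52% in MOP.

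All 3 MOP libraries were below all 3 MODP libraries for 30 of the 76 tested members (39.5%), and all above for 2, Mrpl28 and Mrps34. Over all tested genes 23.8% had MOP wholly below and 23.8% wholly above MODP. The groups did not overlap for any of the 21 lower genes. The extremes were not spread evenly over libraries: 40 members had their highest value in MODP replicate 3, and 30 had their lowest in MOP replicate 1.

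The count of lower members rests on single libraries more than the direction does. It was 6 without MOP replicate 1, 8 without MODP replicate 3, 9 without MOP replicate 2, 10 without MODP replicate 1, 12 without MOP replicate 3 and 24 without MODP replicate 2. Fewer genes of the whole table were called too, except without MODP replicate 2. Without MOP replicate 1 the share of members called lower was 7.89%, the same as the 7.89% of all genes. Without MODP replicate 3 the shares were 10.5% and 9.92%, and without MOP replicate 2 they were 11.8% and 10.3%. Without replicate 2 of both groups, 17 mitoribosomal genes were lower (22.4%, against 15.6% of all tested genes) and 0 were higher. With 1 library left out, 61 to 65 of the 76 tested members had a negative log2 fold change. The 21 lower genes were negative under each of the 14 alternatives run. Their groups did not overlap, so leaving libraries out could hardly turn that sign, and it adds no support. Of the 21, 5 passed the threshold in all 14 alternatives: Mrpl19, Mrpl36, Mrpl38, Mrpl39 and Mrps5.

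**Figure D1:**
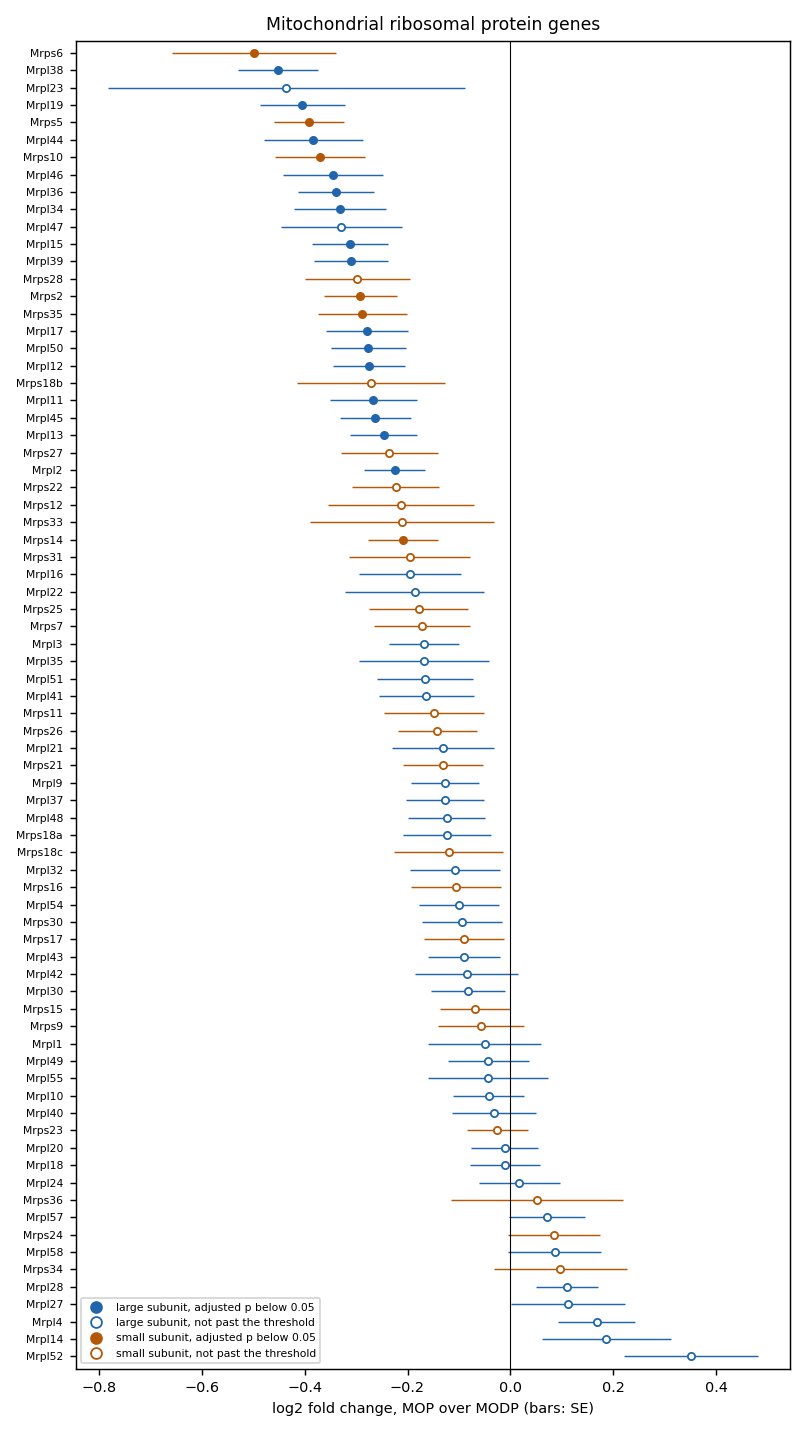
Log2 fold change (MOP over MODP) of the 76 tested mitoribosomal genes, with bars of 1 standard error. Filled points passed an adjusted p of 0.05 and open points did not; blue marks the large and orange the small subunit. All 21 filled points lie left of 0, and 44 of the 55 open points do too.

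**Figure D2:**
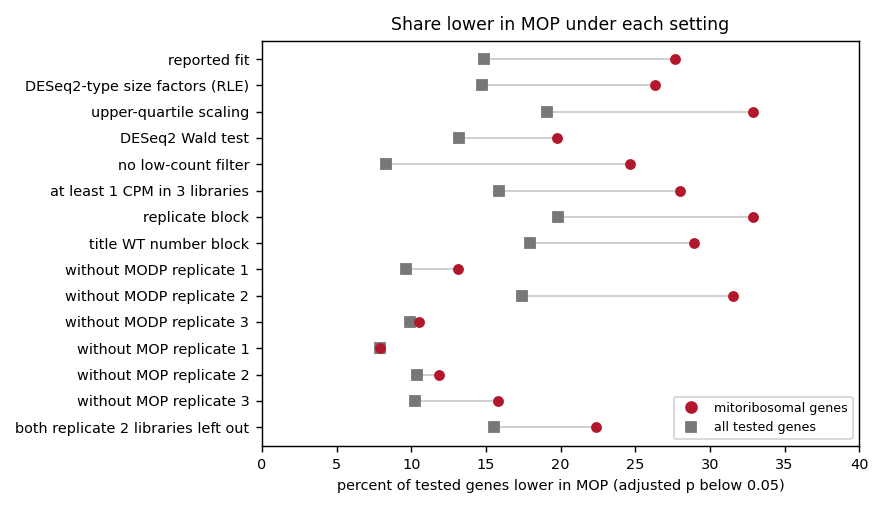
Percent of tested genes called lower in MOP in the reported fit and under 14 alternatives, for mitoribosomal genes (circles) and for all tested genes (squares). The distance between circle and square is large in the reported fit (27.6% against 14.9%) and absent without MOP replicate 1 (7.89% against 7.89%).

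In the large subunit, 15 of 49 tested genes were lower in MOP and the median log2 fold change was -0.13. Mrpl38, a protein of the central protuberance that has no bacterial counterpart, measured 40.3, 38.9 and 43.2 CPM in MODP replicates 1, 2 and 3 and 29.3, 31.6 and 28.6 CPM in the MOP replicates. Its log2 fold change was -0.45 ± 0.078 (SE; adjusted p = 0.0037). The lowest MODP library lay well above the highest MOP library. Mrpl19, the homologue of a bacterial protein at the interface of the subunits, measured 57.0, 54.7 and 59.5 CPM in MODP and 41.2, 40.5 and 47.9 CPM in MOP, a log2 fold change of -0.40 ± 0.082 (adjusted p = 0.0075). Its MOP replicate 3 stood apart from the other two, nearer to MODP but still below it. Of its 31-base words, 41.3% also occur in transcripts of Gcfc2 or other genes, so part of its reads may be shared.

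Mrpl36, the homologue of a small zinc-binding protein of the bacterial large subunit, fell from 52.1, 49.4 and 54.7 CPM in MODP to 38.7, 43.4 and 41.5 CPM in MOP (log2 fold change -0.34 ± 0.074, adjusted p = 0.0099). Mrpl39, a mitochondrial addition related to threonyl-tRNA synthetase, fell from 35.4, 37.8 and 38.5 CPM to 30.7, 29.6 and 29.9 CPM (-0.31 ± 0.071, adjusted p = 0.012). Its MOP libraries lay close together, all below MODP. Mrpl15 fell from 50.3, 57.7 and 54.7 CPM to 44.3, 41.6 and 45.2 CPM (-0.31 ± 0.074, adjusted p = 0.015). Mrpl36 and Mrpl39 held under every alternative. Mrpl15 was no longer called without MOP replicate 1 or without MOP replicate 2, with an adjusted p of at most 0.060, nor without replicate 2 of both groups (adjusted p = 0.065).

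Among the proteins of the stalk, where translation factors bind, Mrpl12 and Mrpl11 were lower and Mrpl10 did not pass. Mrpl12 measured 65.7, 59.2 and 67.7 CPM in MODP and 52.9, 54.2 and 52.1 CPM in MOP (-0.27 ± 0.070, adjusted p = 0.018). Mrpl11 measured 35.9, 33.4 and 38.7 CPM in MODP and 28.7, 29.3 and 31.9 CPM in MOP (-0.27 ± 0.085, adjusted p = 0.043). Mrpl10 measured 51.7, 54.9 and 53.3 CPM in MODP and 48.4, 52.5 and 54.5 CPM in MOP (-0.04 ± 0.069, adjusted p = 0.69), so its groups overlapped. Whether Mrpl10 differs from its stalk partners was not tested. Mrpl12 lost its call without MODP replicate 1, MODP replicate 3, MOP replicate 1 or MOP replicate 3, with an adjusted p of at most 0.068. Mrpl11 kept its call in 1 of the 6 leave-one-out fits, the one without MODP replicate 2 (adjusted p at most 0.15).

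Mrpl44, which carries a fold related to ribonuclease III, measured 48.3, 47.7 and 53.6 CPM in MODP and 33.4, 41.2 and 40.1 CPM in MOP (-0.38 ± 0.096, adjusted p = 0.018). MOP replicate 1 was the lowest library. Mrpl45, which helps to hold the ribosome at the inner membrane, measured 43.5, 48.3 and 45.4 CPM in MODP and 37.3, 38.2 and 38.8 CPM in MOP (-0.26 ± 0.069, adjusted p = 0.021). Mrpl44 lost its call without MODP replicate 3 or MOP replicate 1 (adjusted p at most 0.056), and Mrpl45 without MODP replicate 3 or any 1 MOP replicate (adjusted p at most 0.079).

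Among large subunit genes with a bacterial homologue 9 of 29 were lower (median -0.17), and among mitochondrial additions 6 of 20 (median -0.12). The lower genes not yet given were Mrpl46, Mrpl17, Mrpl50, Mrpl13, Mrpl34 and Mrpl2. Mrpl46, an addition of the central protuberance, measured 24.8, 22.2 and 23.7 CPM in MODP and 16.9, 18.8 and 20.02 CPM in MOP (-0.34 ± 0.098, adjusted p = 0.028). Mrpl17 measured 43.7, 45.0 and 48.4 CPM in MODP and 34.7, 38.7 and 39.5 CPM in MOP (-0.28 ± 0.079, adjusted p = 0.029). For both, MOP replicate 1 was the lowest library and the groups stayed apart. Mrpl50, another addition, measured 38.1, 37.0 and 41.3 CPM in MODP and 32.1, 31.7 and 32.3 CPM in MOP (-0.28 ± 0.073, adjusted p = 0.021). Mrpl13 measured 47.3, 49.7 and 46.5 CPM in MODP and 39.0, 41.3 and 40.6 CPM in MOP (-0.25 ± 0.066, adjusted p = 0.022). Mrpl2, the homologue of a bacterial protein near the peptidyl transferase centre, measured 62.6, 63.7 and 61.0 CPM in MODP and 54.3, 54.4 and 51.5 CPM in MOP (-0.23 ± 0.060, adjusted p = 0.022). Its groups were narrow and lay apart. Mrpl46 and Mrpl17 lost their calls without MODP replicate 1, MODP replicate 3, MOP replicate 1 or MOP replicate 2 (adjusted p at most 0.11), and Mrpl13 and Mrpl2 without MODP replicate 1 or any 1 MOP replicate (adjusted p at most 0.085). Mrpl50 kept its call in 1 of the 6 leave-one-out fits, the one without MODP replicate 2 (adjusted p at most 0.081).

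In the small subunit, 6 of 27 tested genes were lower in MOP and the median log2 fold change was -0.18. Mrps5, the homologue of a bacterial protein near the entry of the messenger, measured 44.9, 45.1 and 48.9 CPM in MODP and 35.6, 35.1 and 35.2 CPM in MOP (-0.39 ± 0.068, adjusted p = 0.0037). Its MOP libraries spread by less than 1 CPM and all lay below MODP. Mrps10, a protein of the head of the subunit, measured 34.6, 33.5 and 37.9 CPM in MODP and 25.1, 27.98 and 28.97 CPM in MOP (-0.37 ± 0.088, adjusted p = 0.014). Mrps2, the homologue of another bacterial small subunit protein, measured 59.6, 56.3 and 63.9 CPM in MODP and 51.2, 48.2 and 47.6 CPM in MOP (-0.29 ± 0.071, adjusted p = 0.016). Mrps10 lost its call without MODP replicate 3 or MOP replicate 1, and Mrps2 without MODP replicate 1, MODP replicate 3, MOP replicate 2 or MOP replicate 3 (adjusted p at most 0.062 and 0.060).

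Mrps6 had the most negative log2 fold change of all members, -0.50, but also a large standard error of 0.16 (adjusted p = 0.045). It was a low gene, at 11.1, 11.1 and 11.5 CPM in MODP and 6.77, 7.36 and 9.71 CPM in MOP. Of the 6 leave-one-out fits, the one without MOP replicate 3 alone kept its call (adjusted p at most 0.16). Mrps35, a mitochondrial addition, measured 35.9, 37.2 and 40.7 CPM in MODP and 32.2, 28.4 and 32.8 CPM in MOP (-0.29, adjusted p = 0.036), and its call was kept without MODP replicate 2 alone (adjusted p at most 0.13). It was the 1 gene called among the 10 mitochondrial additions of the small subunit, against 5 of 17 genes with a bacterial homologue; the medians of these classes were -0.19 and -0.17. Mrps14, at 56.7, 64.2 and 58.8 CPM in MODP and 50.4, 52.5 and 52.5 CPM in MOP, was the weakest call (-0.21, adjusted p = 0.048). Leaving out any single library ended it (adjusted p at most 0.15). Apart from single libraries, leaving out replicate 2 of both groups ended the calls of Mrpl2, Mrpl13, Mrpl15, Mrpl45, Mrps6, Mrps14 and Mrps35. DESeq2's Wald test did not call Mrpl11, Mrpl13, Mrpl46, Mrps6, Mrps14 and Mrps35. Mrpl11 and Mrps14 were also lost without a low-count filter, and Mrps14 with DESeq2-type size factors (adjusted p at most 0.14 over these fits).

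**Figure D3:**
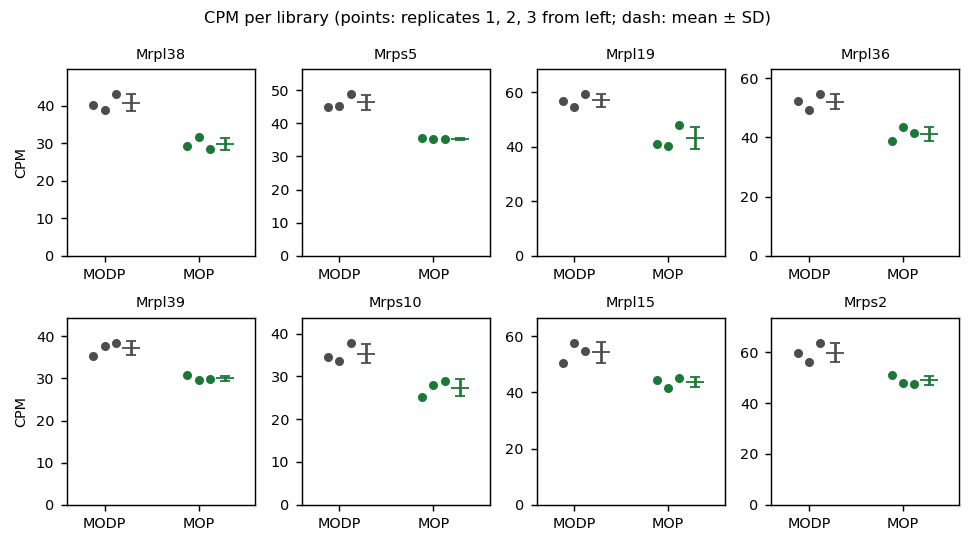
CPM in each library for the 8 lower genes with the smallest adjusted p, on axes that start at 0. Points are replicates 1, 2 and 3 from left to right, MODP in grey and MOP in green, and each dash with its bar is the mean with its SD. In every panel the MOP points lie below the MODP points.

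The 55 tested members that did not pass ranged from -0.44 (Mrpl23) to 0.35 (Mrpl52) in log2 fold change, 44 of them negative and 11 positive. In 9 of them every MOP library lay below every MODP library: Mrpl3, Mrpl23, Mrpl41, Mrpl47, Mrpl48, Mrps21, Mrps22, Mrps26 and Mrps28. Over all tested genes, called ones included, the share wholly below was 23.8%. Mrps28, at 30.8, 31.6 and 31.1 CPM in MODP and 21.7, 26.7 and 27.7 CPM in MOP (-0.30 ± 0.10), narrowly missed the threshold with an adjusted p of 0.056. With replicate numbers as pairs its adjusted p was 0.024. Mrpl47 measured 20.2, 16.6 and 21.4 CPM in MODP and 14.6, 16.01 and 15.85 CPM in MOP (-0.33 ± 0.12, adjusted p = 0.066). Mrps22 measured 21.1, 21.5 and 22.2 CPM in MODP and 18.8, 19.1 and 17.6 CPM in MOP (-0.22 ± 0.085, adjusted p = 0.079). Mrpl3, among the most abundant members in CPM, measured 63.8, 62.7 and 67.8 CPM in MODP and 54.3, 57.8 and 60.9 CPM in MOP (-0.17 ± 0.068, adjusted p = 0.094). With replicate numbers as pairs Mrpl47 and Mrpl3 were also called. The median level was 41.7 CPM for the lower genes and 31.2 CPM for the tested genes that did not pass.

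Mrpl52, a mitochondrial addition, had the highest log2 fold change (0.35 ± 0.13, adjusted p = 0.074). It measured 19.5, 22.3 and 17.8 CPM in MODP and 21.9, 29.1 and 24.7 CPM in MOP, and the groups overlapped. Mrpl4 measured 60.8, 53.8 and 58.6 CPM in MODP and 67.0, 60.3 and 67.5 CPM in MOP (0.17 ± 0.075, adjusted p = 0.12). Each was higher in MOP in all 3 numbered pairs of libraries. The other members with a positive log2 fold change were Mrpl14, Mrpl24, Mrpl27, Mrpl28, Mrpl57, Mrpl58, Mrps24, Mrps34 and Mrps36, between 0.02 (Mrpl24) and 0.19 (Mrpl14). Mrpl58, a peptidyl-tRNA hydrolase that also frees stalled ribosomes, measured 28.04, 26.7 and 28.1 CPM in MODP and 31.1, 26.1 and 30.9 CPM in MOP (0.09 ± 0.091, adjusted p = 0.52).

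Some members whose protein sits elsewhere than its name says, or has a special role, were looked at whatever their test. Mrps12, a protein of the decoding centre, measured 29.4, 30.7 and 30.5 CPM in MODP and 20.03, 27.9 and 30.2 CPM in MOP (adjusted p = 0.30), with MOP replicate 1 far below the rest. Mrps18a, Mrps18b and Mrps18c are relatives of 1 bacterial protein, of which Mrps18a sits in the large subunit. Their log2 fold changes were -0.12, -0.27 and -0.12 (adjusted p = 0.32, 0.19 and 0.44), and the value of Mrps18b is uncertain because 64.3% of its 31-base words occur in other genes. Mrps30, which also sits in the large subunit, had -0.09 (adjusted p = 0.40). Mrps36, a low gene at 4.80 to 5.69 CPM whose protein was later assigned to the oxoglutarate dehydrogenase complex, had 0.05 (adjusted p = 0.85; -0.0031 with upper-quartile scaling).

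Mrpl53 did not pass the filter, with 1, 3 and 2 counts in the MODP libraries and 1, 1 and 0 in the MOP libraries. Of its 31-base words 81.9% occur in other genes. Mrpl23 was also barely detected, at 7 to 12 counts per library. Mrps25, Mrps34 and Mrpl27 share at least 50% of their 31-base words with other genes as well, and none of these uncertain members was called.

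Compared per kilobase of annotated exon, members differed far more from each other than between the populations. Excluding Mrpl23 and Mrpl53, the order ran from Mrpl34 (61.2 CPM per kb in MODP and 48.7 in MOP) down to Mrpl48 (3.88 and 3.56). The middle of the members lay at 14.7 CPM per kb in MODP and 13.0 in MOP. Next in the order were Mrpl2 (53.4 CPM per kb in MODP and 45.6 in MOP) and Mrpl28 (42.8 and 46.2). The highest small subunit genes were Mrps23 (36.8 CPM per kb in MODP and 36.2 in MOP), Mrps28 (39.8 and 32.4) and Mrps15 (36.7 and 35.01). Mrpl34 and Mrpl2 were lower in MOP (adjusted p = 0.024 and 0.022), while Mrpl28, Mrps23 and Mrps15 did not pass (adjusted p = 0.20, 0.78 and 0.49). In CPM, Mrpl28 measured 57.6, 59.6 and 60.2 in MODP and 66.4, 63.01 and 61.96 in MOP, wholly above. Mrps23 measured 56.9, 57.85 and 57.7 CPM in MODP and 57.9, 54.3 and 57.2 CPM in MOP, and Mrps15 measured 60.02, 61.2 and 65.1 CPM in MODP and 55.5, 61.1 and 61.2 CPM in MOP; both overlapped. Length is that of all annotated exons joined, which lowers the value of a gene with long rare isoforms.

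**Figure D4:**
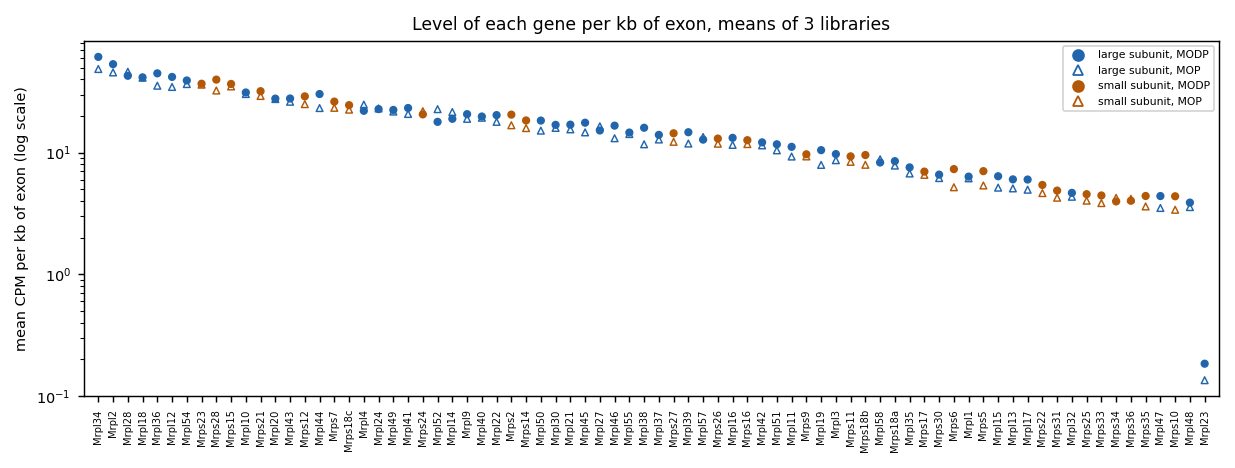
Mean CPM per kilobase of exon (log scale) of the 76 tested members in order of level, with filled circles for MODP and open triangles for MOP, blue for the large and orange for the small subunit. Levels fall from 61.2 (Mrpl34) to 3.88 (Mrpl48) in MODP, with Mrpl23 alone below 1.

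Promoters of mitoribosomal genes are known to be served by general activators of nuclear genes for mitochondria, such as NRF1, the ETS factor GABP and YY1. The RefSeq promoter table (GRCm38.p6), with 250 bases before and 50 after the start, matched 68 members by symbol and 16 of the 21 lower genes. Mrpl4, Mrpl13, Mrpl15, Mrpl19, Mrpl38, Mrpl54, Mrps28, Mrps34 and Mrps35 were not matched. Windows were searched on both strands for CGCATGCG, the core of the NRF1 motif, for CCGGAAG, the ETS motif, and for AAGATGGCG, the YY1 motif. The ETS and YY1 letters can overlap in AAG, which no window of the 27025 genes in the table showed, members or not. The shares of both motifs therefore hold for these windows alone and may be too low for the genes at large.

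The letters occurred in a larger share of the members than of the genes in the table. The NRF1 core was in the windows of 7 members (10.3%), against 2.07% of 27025 genes in the table and 4.42% of the 9643 tested genes in it. The ETS letters were in 25 (36.8%), against 9.93% and 20.5%. The YY1 letters were in 8 (11.8%), against 1.64% and 3.70%. At least 1 of the 3 was in the windows of 35 members (51.5%), against 12.8% of the genes in the table and 26.5% of the tested genes in it. Of the lower members with a window 4 of 16 held any of them, and of the members that did not pass 30 of 51; the difference was not tested. A match is a description of the sequence and no evidence of binding.

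The matches in lower genes are the following, given because these members moved, with motif letters in capitals, flanking bases in lower case and each sequence read 5′ to 3′ on the strand of the gene. Distances are from the start in RefSeq. In GENCODE, whose gene bounds were used for neighbouring genes, Mrpl36 begins at 73328513 and Mrpl39 at 84735742, so that their sites lie inside the annotated gene, as does the NRF1 core of Mrpl17, a gene that begins at 105811099.
Mrpl17, NRF1 core, 10 bases before the RefSeq start, chr7:105811080-105811107 (-): cgagttactgCGCATGCGtcctctgaga
Mrpl17, ETS, 237 bases before the RefSeq start, chr7:105811307-105811334 (-): catgctccgcCCGGAAGgcgcctcctcc
Mrpl34, ETS, 37 bases before the RefSeq start, chr8:71464879-71464906 (+): actacagctcCCGGAAGgccccgcggca
Mrpl36, YY1 on the opposite strand, 31 bases before the RefSeq start, chr13:73330968-73330995 (+): cgtgaccttaCGCCATCTTtcttcctgg
Mrpl39, NRF1 core, 124 bases before the RefSeq start, chr16:84735351-84735378 (-): aggagaggcgCGCATGCGcccccgcgtg

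Mrpl34 has the highest level per kilobase of the members and was lower in MOP, so the 250 bases before its RefSeq start are given whole, chr8:71464676-71464925 (+), with the ETS letters in capitals.
Mrpl34: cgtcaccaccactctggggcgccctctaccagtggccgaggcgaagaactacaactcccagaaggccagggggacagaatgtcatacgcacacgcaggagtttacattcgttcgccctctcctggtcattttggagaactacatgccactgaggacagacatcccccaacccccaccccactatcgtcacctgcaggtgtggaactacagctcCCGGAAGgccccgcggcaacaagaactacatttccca
Mrpl34 itself measured 34.0, 39.4 and 38.2 CPM in MODP and 27.2, 30.99 and 30.5 CPM in MOP (-0.33 ± 0.089). Its call was lost when MODP replicate 3, MOP replicate 1 or MOP replicate 3 was left out, with an adjusted p of at most 0.092.

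Mitoribosomal genes often share their promoter region with a neighbour on the other strand. The GENCODE M21 annotation (GRCm38) was searched for protein-coding genes running the other way that start within 1000 bases of a member's start. Only genes that do not overlap the member were counted. Mrpl46 and Mrps11 run in opposite directions and overlap at their starts, so they were not counted as partners of each other. A partner without overlap was found for 18 of the 76 tested members (23.7%), at a median distance of 82 bases. The same held for 10.6% of the 11805 tested protein-coding genes. Of these 18 members, 3 were lower in MOP (Mrpl2, Mrpl50 and Mrps5). Of the 17 partners that were tested, 2 were higher (Helq and Pnpla7), 2 were lower (Hira and Zfp189) and 13 did not pass. Over all tested genes 16.3% were higher and 14.9% were lower, and the counts of partners did not exceed those shares. Partners were tested in the reported fit alone.

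In 1 of these pairs both genes were lower, Mrpl50 and Zfp189, a zinc finger gene 83 bases away. Zfp189 measured 5.43, 6.02 and 6.75 CPM in MODP and 4.27, 3.91 and 4.32 CPM in MOP (-0.54 ± 0.17, adjusted p = 0.045). Pnpla7, a lysophospholipase gene, was higher in MOP at 141, 137 and 126 CPM against 105, 108 and 90.2 CPM (adjusted p = 0.0057), while its partner Mrpl41 did not pass (-0.16, adjusted p = 0.21). Strand use in the counting was not given in the sources used here. Reads of genes that overlap on opposite strands cannot be told apart without it.

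The genes that build, feed and serve the mitochondrial ribosome were described next, from lists of named genes. Over all tested genes 14.9% were lower in MOP and 16.3% were higher, the shares to set beside each count below. Of 5 ribosome subunits without an Mrp symbol, 1 was lower in MOP: Ptcd3, an RNA-binding protein of the small subunit, at 92.7, 82.5 and 99.4 CPM in MODP and 72.9, 76.6 and 74.8 CPM in MOP (-0.29 ± 0.076, adjusted p = 0.020). Of 26 assembly factors, 3 were lower and 1 was higher, so the share called lower, 11.5%, was below that of all tested genes. Fastkd2, which binds the large ribosomal RNA, fell by 0.36 on the log2 scale (adjusted p = 0.023), and Rcc1l, a further assembly factor, fell by 0.37 (adjusted p = 0.025). Mpv17l2, an inner membrane protein tied to assembly, rose by 0.25 (adjusted p = 0.031), a call that was lost in 10 of 14 alternatives, each single library left out among them. With numbered pairs 3 of the other subunits and 5 assembly factors were lower, and 2 assembly factors were higher. Upper-quartile scaling, which lowers the median of all tested genes to -0.06, gave 4 lower among the other subunits, and 8 lower and 0 higher among the assembly factors. The other subunits had 2 lower with a filter of at least 1 CPM in 3 libraries, with the WT number of the titles as a block and without replicate 2 of both groups. The calls of Ptcd3, Fastkd2 and Rcc1l were each lost without MODP replicate 1, MODP replicate 3, MOP replicate 1 or MOP replicate 3. With MODP replicate 3, MOP replicate 1 or MOP replicate 3 left out, 0 assembly factors and 0 other subunits were lower. Without MODP replicate 1 these counts were 1 and 0, and without MODP replicate 2 they were 5 and 3.

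Of 15 translation factors tested, 4 were lower in MOP and 0 higher. Guf1, a translational GTPase, measured 63.3, 57.85 and 65.0 CPM in MODP and 44.5, 43.9 and 43.4 CPM in MOP (-0.50 ± 0.067, adjusted p = 0.0014), and passed under every alternative. Mrrf, the ribosome recycling factor, fell by 0.42 (adjusted p = 0.026). Leaving out any 1 library other than MODP replicate 2 ended the call of Mrrf and left 1 lower translation factor. Of 20 genes that charge mitochondrial transfer RNAs, 5 were lower and 0 higher, with a median of -0.23. Tars2, for threonine, fell by 0.35 (adjusted p = 0.0046) and Yars2, for tyrosine, fell by 0.45 (adjusted p = 0.0093); both passed under every alternative. With numbered pairs, and also without MODP replicate 2, 10 of these 20 were lower. The count was 9 with upper-quartile scaling, 8 without replicate 2 of both groups and 3 with DESeq2's Wald test. It was 3 without MODP replicate 1 or MODP replicate 3, and 2 without any 1 MOP replicate.

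Of 10 genes for copying and transcribing mitochondrial DNA, 3 were lower and 1 higher. Twnk, the replicative helicase, measured 37.6, 32.0 and 39.6 CPM in MODP and 22.2, 26.6 and 23.9 CPM in MOP (-0.59 ± 0.11, adjusted p = 0.0046). Ssbp1, which coats single-stranded mitochondrial DNA, fell by 0.32 (adjusted p = 0.019), a call lost when MODP replicate 3, MOP replicate 1 or MOP replicate 2 was left out. Polg, the catalytic subunit of the polymerase, went the other way, from 88.5, 101 and 86.3 CPM to 115, 116 and 110 CPM (0.31 ± 0.070, adjusted p = 0.012). The call of Polg was lost without MODP replicate 1 or MOP replicate 1, and 1 gene of this list was lower without MODP replicate 3 or MOP replicate 1.

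Of 14 RNAs encoded in mitochondrial DNA, 11 were lower in MOP and 3 did not pass, with a median log2 fold change of -0.35. For all 14 every MOP library lay below every MODP library, which held for 23.8% of all tested genes. mt-Nd1, a subunit of complex I, measured 2451, 2690 and 2333 CPM in MODP and 1894, 1975 and 1834 CPM in MOP (-0.39 ± 0.064, adjusted p = 0.0029). mt-Nd2, another subunit of it, fell by 0.46 (adjusted p = 0.0036). Of the 14, 6 share at least 50% of their 31-base words with other genes and are uncertain, 4 of the 11 calls among them. The large ribosomal RNA, mt-Rnr2, measured 845, 1022 and 678 CPM in MODP and 487, 492 and 527 CPM in MOP (-0.76 ± 0.14, adjusted p = 0.0093). The small one, mt-Rnr1, measured 184, 284 and 146 CPM in MODP and 122, 136 and 132 CPM in MOP without passing (adjusted p = 0.13). MODP replicate 2 was highest for both. The count of 11 became 7 when MODP replicate 1, MOP replicate 1 or MOP replicate 2 was left out, and 6 without MOP replicate 3.

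Of 25 import genes, which carry proteins such as the members into the organelle, 9 were lower in MOP and 0 higher (5 lower without MOP replicate 1). Tomm5, of the outer membrane channel, fell by 0.42 (adjusted p = 0.0028), and Timm8a1, an intermembrane space chaperone, fell by 0.50 (adjusted p = 0.0042). Of 10 regulators tested, 2 were lower in MOP, 2 were higher and 6 did not pass, with a median of -0.03. Gabpb1, a subunit of GABP, fell by 0.37 (adjusted p = 0.0039). Gabpb2, its relative, rose by 0.30 (adjusted p = 0.0099), and Nrf1 rose by 0.23 (adjusted p = 0.029). Myc, a broad activator of ribosome and mitochondrial genes, measured 250, 212 and 259 CPM in MODP and 109, 111 and 115 CPM in MOP (-1.11 ± 0.078, adjusted p = 0.00021). The call of Nrf1 was lost under upper-quartile scaling and without MODP replicate 1, MODP replicate 3, MOP replicate 1 or MOP replicate 3, which left 1 higher regulator; the other calls passed under every alternative.

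Ribosomal proteins of the cytosol showed a larger share of calls than the mitoribosomal genes, and the nuclear subunits of the respiratory chain a smaller one. Of 79 cytosolic ribosomal protein genes tested, 53 were lower in MOP (67.1%) and 0 higher, with a median log2 fold change of -0.22. Of those 53, 15 share at least 50% of their 31-base words with other genes. Of 82 respiratory chain genes, 7 were lower (8.54%) and 1 higher, with a median of -0.07. The difference between these sets and the mitoribosomal genes was not tested. The cytosolic count was 25 without MODP replicate 1, 17 without MOP replicate 1, 20 without MOP replicate 2 and 33 without MOP replicate 3. The respiratory count was 13 with upper-quartile scaling, 11 with numbered pairs, 4 without replicate 2 of both groups, 3 without MODP replicate 1 or MOP replicate 1, and 4 without MODP replicate 3 or MOP replicate 2. Its higher count was 3 without MODP replicate 2, and 0 with upper-quartile scaling, without a low-count filter, without replicate 2 of both groups and without any other 1 library.

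**Figure D5:**
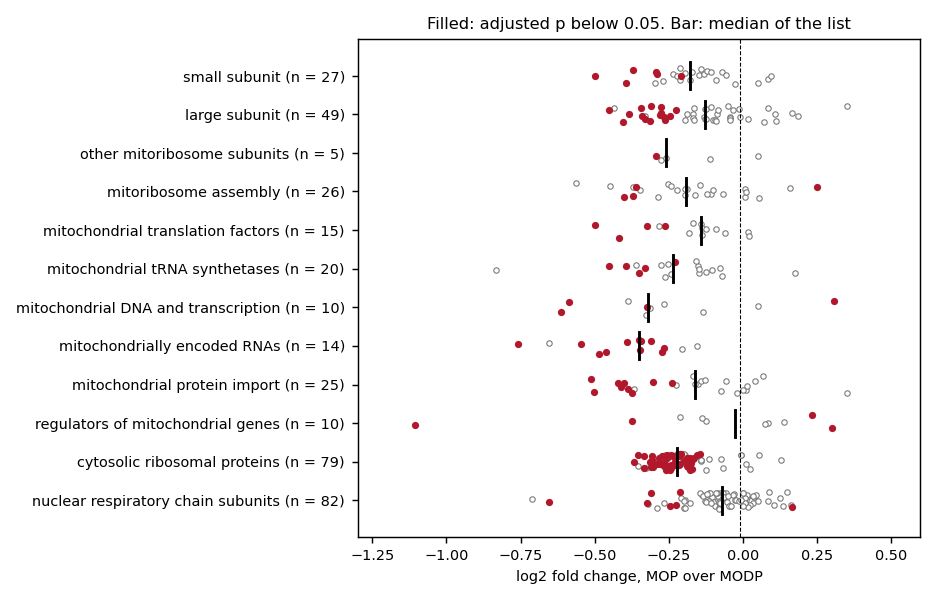
Log2 fold change (MOP over MODP) of each tested gene by list. Filled red points passed an adjusted p of 0.05, black bars are list medians, the dashed line is the median of all tested genes (-0.01), and 1 respiratory chain gene lies left of the axis limit of -1.3. The bars of both mitoribosomal subunits (-0.18 and -0.13) lie between those of the cytosolic ribosomal proteins (-0.22) and of the respiratory chain (-0.07).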

How the data were processed

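The authors deposited raw read counts per Ensembl gene, whole numbers with no normalization, made with TopHat 1.4 and HTSeq per the submitters' processing notes. Sorted cells were lysed in TriZol and libraries made with a TruSeq kit, per the labels' protocols. Genome build, annotation and strand setting of the counting were not given in the sources used here. Groups come from the cell type label. Whether the 3 libraries of a group are separate animals is not given, so a p-value reflects spread among these samples only, and that may be technical.

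Symbols came from GENCODE M21 (20840 of 22271 identifiers). Counts were scaled with TMM factors (0.983 to 1.03), filtered with filterByExpr and tested with edgeR 4.0.16 in R 4.3.3 (quasi-likelihood, robust, group alone, Benjamini-Hochberg over 12850 genes, threshold 0.05). All adjusted p-values are from this fit unless another is named. CPM values and their SD were computed from the scaled counts. The SE of a log2 fold change was derived from the test, as its absolute value over the square root of the F statistic. DESeq2 1.42.0, other scalings and filters, blocks and left-out libraries were the alternatives. The script was tested on simulated data. The changes planted there were all larger than those of the 21 lower members, so the test does not cover calls of that size. Genes with at least 50% of the 31-base words of their longest transcript in other genes' transcripts were marked uncertain.

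Members and lists were chosen with earlier results of these data known. Named were the 8 lower genes with the smallest adjusted p, the 3 highest genes per kilobase of each subunit, Mrpl12, Mrps12, Mrps18a, Mrps18b, Mrps18c, Mrps30 and Mrps36, Mrpl53 as not tested, and up to 2 genes per direction in each context list. Other members and the head-to-head partners were named after their values were seen, as was mt-Rnr2 with mt-Rnr1.

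The column names number the libraries 1, 2 and 3 in each group, whereas the titles of the last pair repeat WT1. Deviations from group means over 9351 genes correlated at 0.59, 0.61 and 0.51 between same-numbered libraries and at -0.45 to 0.05 between others. Column numbers were therefore used as pairs in an alternative. The reported fit used group alone, so its calls, standard errors and adjusted p-values leave this pairing out. With the pairs 25 members were lower and 2 higher, against 21 and 0 in the reported fit. Within groups, chi-square per degree of freedom between libraries was 7.35 to 34.7, so none was the same library sequenced again. The lowest values, 7.35 in MODP and 8.76 in MOP, were between libraries 1 and 3, both titled WT1. This check cannot tell separate animals from separate preparations of the same animal.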

Additional observations from a re-analysis of the deposited data

How the results depend on the processing

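The count of 21 lower members became 20 with DESeq2-type size factors, 25 with upper-quartile scaling, 15 with DESeq2's Wald test, 19 without a low-count filter, 21 with a filter of at least 1 CPM in 3 libraries, 25 with the replicate number as a block, 22 with the WT number of the titles as a block and 17 without replicate 2 of both groups. With 1 library left out it ranged from 6 to 24. The count of higher members was 0 in the reported fit, 1 without a low-count filter (Mrpl52), 2 with either block (Mrpl4 and Mrpl52), and 0 to 1 with 1 library left out. The block on replicate number also gave calls for Mrps28, Mrps27, Mrpl3 and Mrpl47 as lower and ended none of the 21. The median log2 fold change of -0.16 became -0.21 with upper-quartile scaling and ranged from -0.18 to -0.12 with 1 library left out. That scaling moved the median of all tested genes to -0.06 and their calls to 1692 higher and 2452 lower, from 2095 and 1913, so that the members' median relative to all genes was -0.15 in either fit. Reversed signs were found for Mrps36 (-0.0031 with upper-quartile scaling) and for Mrps23 (0.0076 without replicate 2 of both groups, and -0.046 to 0.0039 with 1 library left out), neither of which passed in any fit. The cause was not tested. The typical standard error of a member, 0.085 on the log2 scale, limits what could be called.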
